A study of Homo sapiens with 12 samples.

Results

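The data were read for 10 genes of the TGF-beta pathway: the ligands TGFB1 and TGFB2, the receptors TGFBR1 and TGFBR2, the receptor-activated SMAD2 and SMAD3, the inhibitors SMAD6, SMAD7 and SKIL, and the target TGFBI. They were chosen by symbol, with earlier results of these data known, as 10 of the 16299 genes in the expression table. Of these, 10 of 10 passed the filter on low values (at least 1 RPKM in at least 2 libraries, 15794 genes). RPKM is read density scaled for gene length and library size, and the deposited values were its log2. The libraries came from BXPC3 and PANC1, established human lines of pancreatic ductal adenocarcinoma, each embedded in collagen, in 5% gelatin methacryloyl (GelMA, a gelatin that can be cross-linked into a gel) or in 7.5% GelMA. Every group had 2 libraries, 12 in all, and no group received TGF-beta, a pathway inhibitor or another agent per the labels. Both lines were grown in the same glucose-rich medium with foetal bovine serum, and each line stands for a single tumour. The sources used here do not give gel stiffness, time in gel or whether replicates were separate cultures. The p-values therefore speak only to how far the 2 libraries within each group lay apart, over all groups, and this distance may be technical.

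TGF-beta is secreted in a latent form that latent TGF-beta binding proteins anchor in the matrix, and it must be released before it can bind. The active ligand binds TGFBR2, which recruits and phosphorylates TGFBR1, which in turn phosphorylates SMAD2 and SMAD3, and these enter the nucleus with SMAD4. SMAD7 blocks the type I receptor, SMAD6 acts mainly on the related BMP branch, and SKIL encodes SnoN, a repressor that binds SMAD proteins. In pancreatic cancer SMAD4 is often lost, which removes part of the growth arrest that TGF-beta imposes on epithelial cells.

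SMAD4 separated the lines in the direction of their known SMAD4 status, with -5.92 to -5.35 log2 RPKM in BXPC3 and 3.94 to 4.55 in PANC1. Replicates correlated at 0.9921 to 0.9948 over all genes, and the depth of the libraries is unknown because the deposited values keep no read totals. The epithelial markers EPCAM, CDH1, KRT7, KRT8, KRT18, KRT19 and CLDN4 (7 of 7 present) summed to 7470 to 8950 RPKM in BXPC3. In PANC1 their sum was 4790 to 5610 RPKM in collagen, 6870 to 7010 in 5% GelMA and 5880 to 6640 in 7.5% GelMA. These sums hide opposite differences. KRT7 lay at 10.24 to 10.74 log2 RPKM in BXPC3 and 1.8 to 2.75 in PANC1, and CDH1 at 8.22 to 8.4 and 4.2 to 4.86. EPCAM and KRT19 were also lower in every PANC1 library, and the CLDN4 ranges overlapped. KRT8 (9.64 to 10.27 in BXPC3, 10.37 to 11.16 in PANC1) and KRT18 (10.39 to 10.83 and 11.1 to 11.69) were higher in PANC1. Of the fibroblast markers, 2 of 6 were measured, and their sum in PANC1 was 49.3 to 57.2 RPKM in collagen, 11.4 to 12.1 in 5% GelMA and 5.76 to 7.31 in 7.5% GelMA. Nearly all of that PANC1 sum was the collagen gene COL3A1, at 2.51 to 5.84 log2 RPKM, while PDGFRA lay at -4.94 to -3.17. In BXPC3 the sum was 10.4 to 10.7 RPKM in collagen, 7.9 to 8.25 in 5% GelMA and 9.12 to 9.34 in 7.5% GelMA. There COL3A1 lay at 2.33 to 2.7 log2 RPKM and PDGFRA at 1.52 to 2.11. COL1A2, DCN, LUM and PDGFRB were not analysed here. The 3 measured endothelial and 3 measured immune markers summed to at most 4.12 and 23.4 RPKM in any library. The part of these marker levels in the results below was not tested.

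Promoters are shown for 4 of the 5 genes that changed in opposite directions in the 2 lines (TGFB2, SMAD6, SKIL and TGFBI, each with a single RefSeq promoter entry), so that the sequence at their start can be read beside their values. Each runs 5′ to 3′ on the gene's own strand, from 250 bases before the RefSeq start through 50 bases from it, on GRCh38.p14. TGFB2 lies at chr1:218345086-218345385 (plus strand), SMAD6 at chr15:66701986-66702285 (plus), SKIL at chr3:170357465-170357764 (plus) and TGFBI at chr5:136028738-136029037 (plus). The RefSeq starts of SKIL and TGFBI are also transcript starts in the annotation GENCODE 29, and those of TGFB2 and SMAD6 are not. The TGFB2 window ends before the GENCODE 29 start of that gene, at chr1:218346235. Capitals mark the SMAD box CAGAC, on either strand, or the palindrome GTCTAGAC.
TGFB2: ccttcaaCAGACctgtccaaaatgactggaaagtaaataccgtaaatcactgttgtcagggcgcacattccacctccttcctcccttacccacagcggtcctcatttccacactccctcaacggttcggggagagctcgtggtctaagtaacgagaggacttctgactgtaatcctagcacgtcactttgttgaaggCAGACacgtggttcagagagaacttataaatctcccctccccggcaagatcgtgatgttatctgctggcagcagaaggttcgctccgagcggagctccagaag
SMAD6: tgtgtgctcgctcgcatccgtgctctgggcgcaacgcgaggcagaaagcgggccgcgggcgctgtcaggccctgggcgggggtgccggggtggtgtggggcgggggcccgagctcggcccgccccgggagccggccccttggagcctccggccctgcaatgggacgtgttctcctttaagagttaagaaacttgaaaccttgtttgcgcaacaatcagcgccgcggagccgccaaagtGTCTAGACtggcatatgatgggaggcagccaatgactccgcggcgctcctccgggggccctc
SKIL: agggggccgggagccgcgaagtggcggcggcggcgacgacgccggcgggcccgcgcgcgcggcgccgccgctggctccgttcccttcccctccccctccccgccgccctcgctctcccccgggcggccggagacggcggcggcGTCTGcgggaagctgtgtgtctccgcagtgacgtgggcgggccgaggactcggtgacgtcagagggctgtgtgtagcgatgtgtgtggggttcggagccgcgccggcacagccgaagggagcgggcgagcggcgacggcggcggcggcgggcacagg
TGFBI: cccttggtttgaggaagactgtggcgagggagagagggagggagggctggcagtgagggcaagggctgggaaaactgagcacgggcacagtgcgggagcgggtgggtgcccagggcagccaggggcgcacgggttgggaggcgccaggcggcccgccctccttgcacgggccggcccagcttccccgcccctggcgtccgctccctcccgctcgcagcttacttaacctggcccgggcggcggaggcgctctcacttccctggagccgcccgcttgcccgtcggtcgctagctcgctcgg

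The SMAD6 promoter held GTCTAGAC at positions -12 to -5, counted from the start as base 0, a sequence found in 71 of all 35116 RefSeq promoters of this length (0.202%). Copies of CAGAC began at -243 and -53 in TGFB2 and, on the opposite strand, at -107 in SKIL, whereas 45.3% of all promoters hold at least 1 copy. TGFBI had none of these letters in this window. The AP-1 motif TGANTCA, present in 7.71% of all promoters, was in none of the 4. The palindrome does not contain CAGAC, motifs were searched on both strands, and a match describes the sequence and does not show binding.

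The gel changed 6 of the 10 genes in BXPC3 (GelMA, the mean of 5% and 7.5%, against collagen; limma, Benjamini-Hochberg adjusted p under 0.05), where 36.1% of all genes tested were called. TGFB2 and TGFBR1 rose (19.4% of all genes rose), and SMAD6, SMAD7, SKIL and TGFBI fell (16.7% fell). With the BXPC3 libraries alone, 3 of the 10 were called in BXPC3, where 5096 of the 15794 genes tested were called. Calls also depended on BXPC3 collagen replicate 1: without it TGFBR1 was at 0.13 log2, SMAD7 at -0.23 and SKIL at -0.14. In PANC1 the gel changed 8 of 10, against 55.1% of all genes: TGFBR2, SMAD6, SMAD7, SKIL and TGFBI rose (27.7% of all genes), and TGFB1, TGFB2 and SMAD2 fell (27.4%). Library values of collagen and GelMA did not overlap for 6 of the 10 in BXPC3 (52% of all genes) and 7 of the 10 in PANC1 (61.6%). The median change of the 10 was -0.01 log2 in BXPC3 and 0.10 in PANC1, beside 0.01 and -0.01 over all genes tested.

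**Figure D1:**
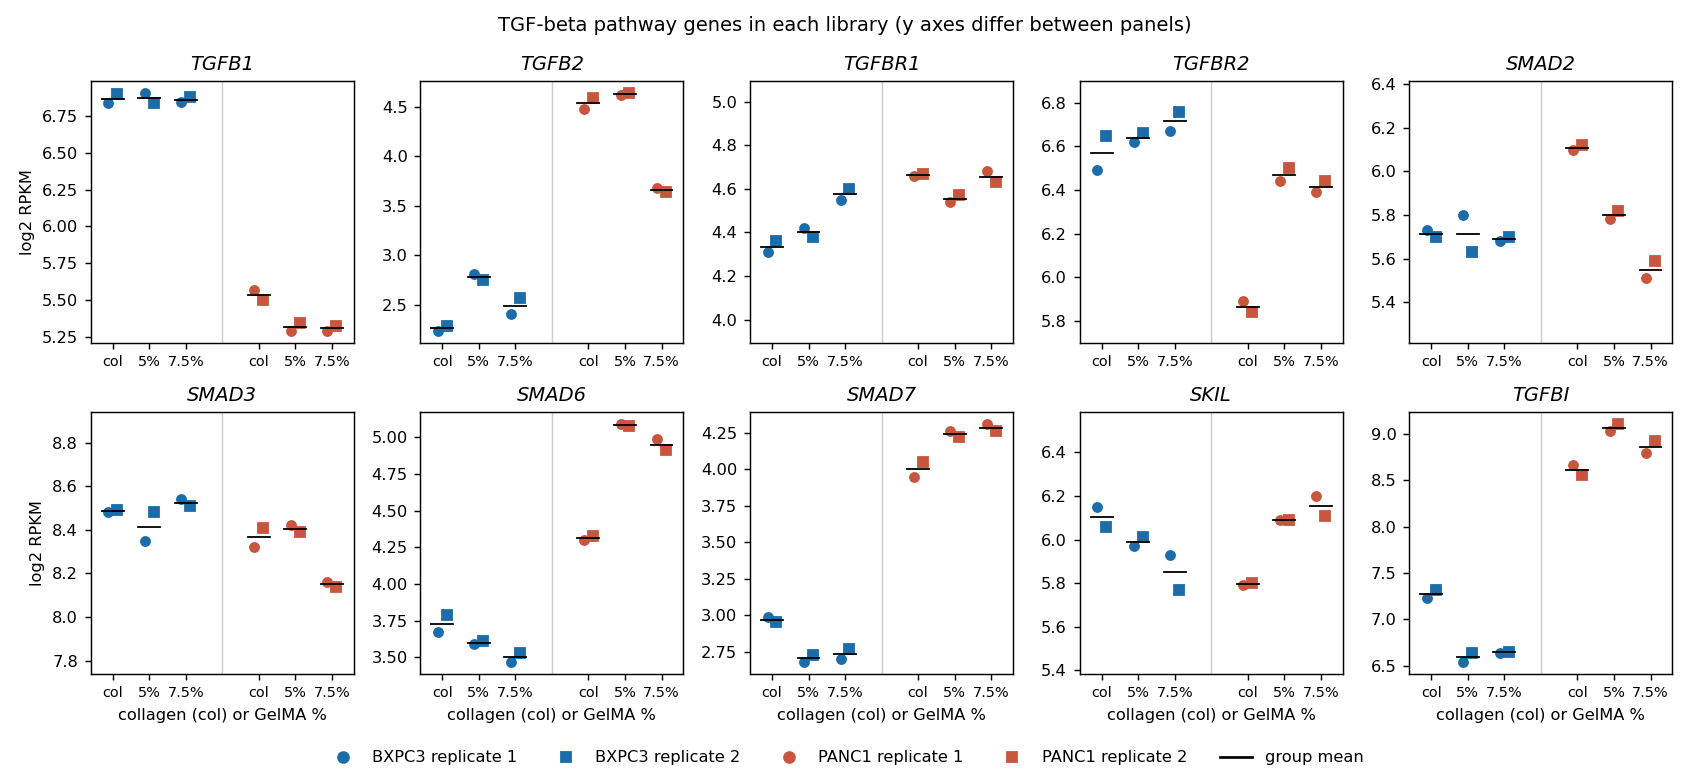
Level of each of the 10 genes in log2 RPKM (y axis, which differs between panels) in the 12 libraries, by matrix (x axis: collagen, 5% or 7.5% GelMA) and line (blue BXPC3, red PANC1); circles and squares are replicates 1 and 2 and bars are group means. SMAD6, SMAD7 and TGFBI sit higher in all PANC1 than in all BXPC3 libraries, and their GelMA points lie below collagen in BXPC3 and above it in PANC1.

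TGFB1, the most widely expressed of the TGF-beta ligands, stood at 6.84 and 6.90 log2 RPKM in BXPC3 in collagen, 6.91 and 6.84 in 5% GelMA and 6.85 and 6.88 in 7.5% GelMA. In PANC1 the values were 5.57 and 5.50 in collagen, 5.29 and 5.34 in 5% GelMA and 5.29 and 5.32 in 7.5% GelMA. The BXPC3 groups overlapped completely, and every PANC1 GelMA library lay below both PANC1 collagen libraries. The gel difference in BXPC3 was 0.00 log2 (95% confidence interval -0.08 to 0.08), and in PANC1 TGFB1 fell by 0.22 ± 0.04 (SE; limma adjusted p 0.000476). The levels of TGFB1 carry an uncertainty of their own: the gene, at chr19:41301587-41353911 on the minus strand of GRCh38, overlaps HNRNPUL1, CCDC97 and TMEM91 on the opposite strand, and the sources used here do not say whether strand was used in counting. Reads from these overlapping stretches could not be told apart without strand.

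TGFB2, a ligand that needs the co-receptor TGFBR3 for high-affinity binding, was low in BXPC3: 2.24 and 2.29 log2 RPKM in collagen, 2.81 and 2.75 in 5% GelMA and 2.41 and 2.57 in 7.5% GelMA. In PANC1 it stood at 4.48 and 4.59 in collagen, 4.62 and 4.64 in 5% GelMA and 3.68 and 3.64 in 7.5% GelMA. The 5% GelMA libraries were the highest of each line, and 7.5% GelMA was above collagen in BXPC3 and far below it in PANC1. Against collagen, TGFB2 rose in BXPC3 by 0.36 ± 0.07 log2 (adjusted p 0.00317), a gain of 0.51 ± 0.08 in 5% GelMA (adjusted p 0.00157) beside 0.22 ± 0.08 in 7.5% GelMA, which was not called (adjusted p 0.0697). In PANC1 it fell over both gels together by 0.39 ± 0.07 (adjusted p 0.000953), a mean of unlike parts: 0.09 (interval -0.09 to 0.27, adjusted p 0.384) in 5% GelMA and -0.88 ± 0.08 (adjusted p 1.27e-05) in 7.5% GelMA. The comparisons of each percentage with collagen share the collagen libraries. Within a library, TGFB1 exceeded TGFB2 by 17.1 to 24.3 times in RPKM in BXPC3, and by 1.59 to 3.2 times in PANC1.

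The type II receptor TGFBR2, which binds the ligand first, was measured in BXPC3 at 6.49 and 6.65 log2 RPKM in collagen, 6.62 and 6.66 in 5% GelMA and 6.67 and 6.76 in 7.5% GelMA. PANC1 had 5.89 and 5.84 in collagen, 6.44 and 6.50 in 5% GelMA and 6.39 and 6.44 in 7.5% GelMA. PANC1 in collagen stood apart below all the other groups, and PANC1 in either gel came close to BXPC3. TGFBR2 rose in PANC1 by 0.58 ± 0.05 log2 (limma adjusted p 6.32e-06), with 0.60 in 5% and 0.55 in 7.5% GelMA. The BXPC3 difference was 0.10 ± 0.05 (interval 0.00 to 0.21, adjusted p 0.123). That one rests on a single library, since without BXPC3 collagen replicate 2, the higher of that pair, TGFBR2 was 0.18 higher in GelMA with an adjusted p of 0.0278.

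TGFBR1, the type I receptor kinase that passes the signal to the SMADs, was at 4.31 and 4.36 log2 RPKM in BXPC3 in collagen, 4.42 and 4.38 in 5% GelMA and 4.55 and 4.60 in 7.5% GelMA. Its PANC1 values were 4.66 and 4.67 in collagen, 4.54 and 4.57 in 5% GelMA and 4.68 and 4.63 in 7.5% GelMA. All 12 libraries lay in a narrow band, with BXPC3 in collagen at its lower end. In BXPC3 the gene rose by 0.16 ± 0.04 log2 (adjusted p 0.0164), with 0.25 ± 0.05 in 7.5% GelMA (adjusted p 0.0048) and 0.07 in 5% GelMA (adjusted p 0.321). Without BXPC3 collagen replicate 1 the adjusted p was 0.0933, and with the BXPC3 libraries fitted alone it was 0.0583. The PANC1 difference was -0.06 (interval -0.15 to 0.04, adjusted p 0.298). TGFBR2 exceeded TGFBR1 by 4.34 to 4.92 times in RPKM in every BXPC3 library. In PANC1 the ratio was 2.36 and 2.26 in collagen, and it was higher in every GelMA library, 3.27 to 3.8.

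SMAD3, which binds DNA directly, was the more abundant of the receptor-activated pair: 8.48 and 8.49 log2 RPKM in BXPC3 in collagen, 8.35 and 8.48 in 5% GelMA and 8.54 and 8.51 in 7.5% GelMA. PANC1 had 8.32 and 8.41 in collagen, 8.42 and 8.39 in 5% GelMA and 8.16 and 8.14 in 7.5% GelMA. The 2 PANC1 libraries in 7.5% GelMA were lower than the other 10 libraries. The gel differences were -0.01 in BXPC3 (interval -0.10 to 0.07) and -0.09 in PANC1 (interval -0.17 to 0.00, adjusted p 0.0773), and neither was called. The PANC1 difference was called without PANC1 collagen replicate 1 (-0.13, adjusted p 0.0457), without either BXPC3 5% GelMA library (adjusted p 0.035) and with the PANC1 libraries alone (adjusted p 0.049). In 7.5% GelMA alone, SMAD3 fell in PANC1 by 0.22 ± 0.04 (adjusted p 0.00236).

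For SMAD2, the partner whose common form does not bind DNA by itself, the BXPC3 values were 5.73 and 5.70 log2 RPKM in collagen, 5.80 and 5.63 in 5% GelMA and 5.68 and 5.70 in 7.5% GelMA. PANC1 went from 6.10 and 6.12 in collagen to 5.78 and 5.82 in 5% GelMA and 5.51 and 5.59 in 7.5% GelMA. PANC1 thus held both the highest group (collagen) and the lowest (7.5% GelMA), and the BXPC3 groups overlapped. SMAD2 fell in PANC1 by 0.44 ± 0.05 log2 (limma adjusted p 2.95e-05), by 0.32 in 5% and 0.56 in 7.5% GelMA, and the BXPC3 difference was -0.01 (interval -0.12 to 0.09). SMAD3 exceeded SMAD2 by 4.67 and 4.87 times in RPKM in PANC1 in collagen, and by 5.88 to 6.27 times in the 4 PANC1 GelMA libraries. In BXPC3 that ratio was 6.72 and 6.92 in collagen, 5.88 and 7.2 in 5% GelMA and 7.29 and 7.02 in 7.5% GelMA, so the 5% GelMA libraries overlapped the others, and both 7.5% GelMA libraries lay above both collagen libraries. SMAD4, the partner of both, stood in PANC1 at 4.54 and 4.55 in collagen, 4.22 and 4.27 in 5% GelMA and 3.99 and 3.94 in 7.5% GelMA. Its gel difference in PANC1 was -0.44 ± 0.19 (adjusted p 0.0717) and was not called. It was called with the PANC1 libraries alone (adjusted p 0.000238), on the log2(RPKM + 1) scale (0.00019), without the trend (0.00783) and without BXPC3 collagen replicate 1 (0.0372) or 2 (0.0382). In 7.5% GelMA alone SMAD4 fell by 0.58 ± 0.22 (adjusted p 0.0454), a call lost in 8 of 20 alternatives, among them the removal of any 1 PANC1 library.

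**Figure D2:**
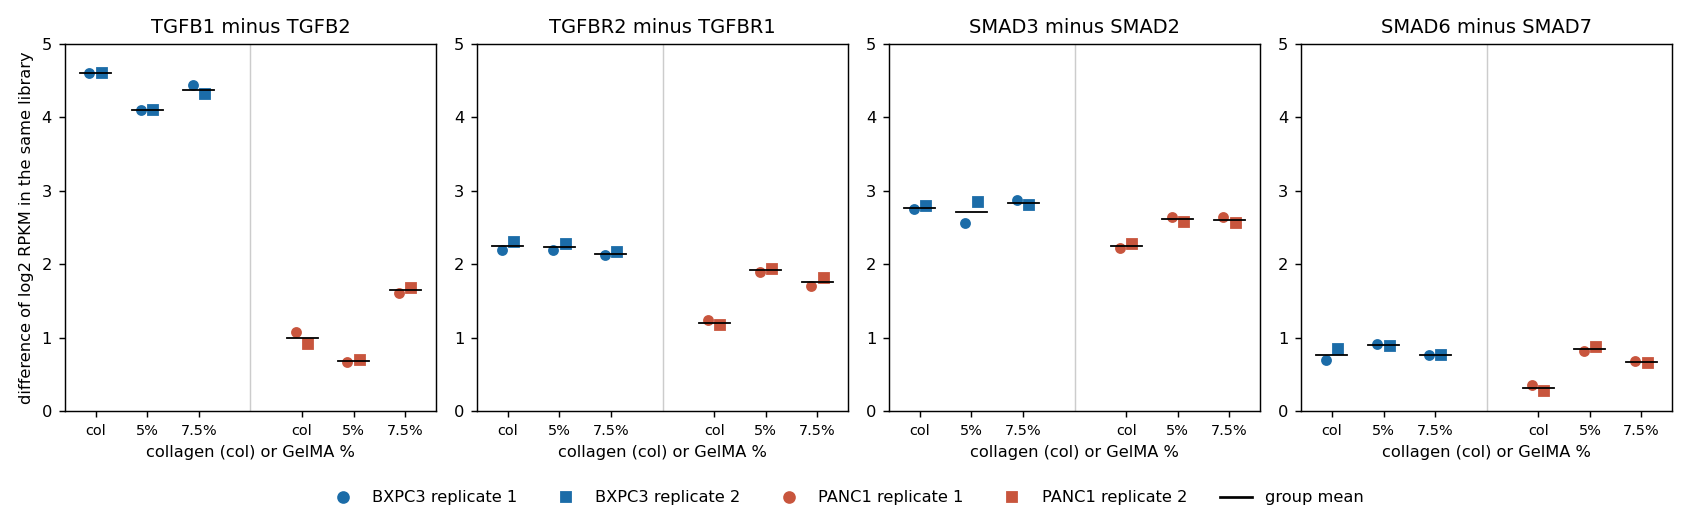
Difference in log2 RPKM between paired genes within the same library (y axis) for the ligands, the receptors, the receptor-activated SMADs and the inhibitory SMADs, by matrix (x axis) and line (blue BXPC3, red PANC1); bars are group means. The gap between TGFB1 and TGFB2 is 4.1 to 4.6 in BXPC3 and 0.67 to 1.68 in PANC1.

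Over both gels together, the 3 inhibitors were called lower in BXPC3 and higher in PANC1 (3.04% of all genes tested), a pattern that 0 of 18 other inhibitors described below had. Each of the 3 BXPC3 calls was lost in at least 1 alternative. In BXPC3 in 5% GelMA alone, SMAD6 (-0.13, limma adjusted p 0.132) and SKIL (-0.11, adjusted p 0.156) were not called. SMAD6 was at 3.67 and 3.79 log2 RPKM in BXPC3 in collagen, 3.59 and 3.61 in 5% GelMA and 3.47 and 3.53 in 7.5% GelMA. In PANC1 it went from 4.30 and 4.33 in collagen to 5.09 and 5.08 in 5% GelMA and 4.99 and 4.91 in 7.5% GelMA. Matrices did not overlap in either line, and BXPC3 in 7.5% GelMA was the lowest group and PANC1 in 5% GelMA the highest. SMAD6 rose in PANC1 by 0.70 ± 0.05 log2 (limma adjusted p 3.02e-06) and fell in BXPC3 by 0.18 ± 0.05 (adjusted p 0.0232). The fall in BXPC3 was not called without BXPC3 collagen replicate 2 (-0.12, adjusted p 0.19), without BXPC3 7.5% GelMA replicate 1 (-0.17, adjusted p 0.0585) or with the BXPC3 libraries alone (adjusted p 0.0945).

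SMAD7, the feedback inhibitor that TGF-beta itself induces in many cells, was at 2.99 and 2.95 log2 RPKM in BXPC3 in collagen, 2.68 and 2.73 in 5% GelMA and 2.70 and 2.77 in 7.5% GelMA. PANC1 had 3.95 and 4.05 in collagen, 4.26 and 4.22 in 5% GelMA and 4.31 and 4.26 in 7.5% GelMA. The 2 gels lay together in each line, below collagen in BXPC3 and above it in PANC1. SMAD7 fell in BXPC3 by 0.25 ± 0.06 (adjusted p 0.0112) and rose in PANC1 by 0.26 ± 0.06 (adjusted p 0.00471). The BXPC3 value was not called without BXPC3 collagen replicate 1 (adjusted p 0.0539) or with the BXPC3 libraries alone (adjusted p 0.0664), nor the PANC1 value without PANC1 collagen replicate 1 (0.22, adjusted p 0.0504). Taken singly against collagen in BXPC3, SMAD7 was called in 5% GelMA (-0.26, limma adjusted p 0.0209) and in 7.5% GelMA (-0.23, adjusted p 0.0329). These calls were lost in 4 and 10 of 20 alternatives. SMAD6 exceeded SMAD7 by 1.28 and 1.22 times in RPKM in PANC1 in collagen, and by 1.57 to 1.82 times in PANC1 in GelMA.

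SKIL gave 6.15 and 6.06 log2 RPKM in BXPC3 in collagen, 5.97 and 6.01 in 5% GelMA and 5.93 and 5.77 in 7.5% GelMA. In PANC1 it gave 5.79 and 5.80 in collagen, 6.09 and 6.09 in 5% GelMA and 6.20 and 6.11 in 7.5% GelMA. The lines thus crossed: in collagen both BXPC3 libraries were above PANC1, and in each gel both PANC1 libraries were above BXPC3. SKIL fell in BXPC3 by 0.18 ± 0.05 (adjusted p 0.0153) and rose in PANC1 by 0.33 ± 0.05 (adjusted p 0.000285). Without BXPC3 collagen replicate 1 the BXPC3 value was -0.14 and was not called (adjusted p 0.121).

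TGFBI encodes a secreted matrix protein named for its induction by TGF-beta. It stood in BXPC3 at 7.23 and 7.32 log2 RPKM in collagen, 6.54 and 6.64 in 5% GelMA and 6.64 and 6.65 in 7.5% GelMA. PANC1 had 8.67 and 8.56 in collagen, 9.03 and 9.11 in 5% GelMA and 8.80 and 8.93 in 7.5% GelMA. Matrices were separated in both lines, downward from collagen to gel in BXPC3 and upward in PANC1. TGFBI fell in BXPC3 by 0.66 ± 0.05 log2 (limma adjusted p 2.59e-05) and rose in PANC1 by 0.35 ± 0.05 (adjusted p 0.000242), and each call held in every alternative run for it.

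The gel effects of the lines were then compared directly, as the PANC1 effect minus the BXPC3 effect. By this test 9 of the 10 genes differed, against 39.1% of all genes tested: 5 toward PANC1 (18.5% of all genes) and 4 toward BXPC3 (20.6%). The difference was 1.01 ± 0.07 log2 for TGFBI (limma adjusted p 6.02e-06), 0.88 ± 0.07 for SMAD6 (adjusted p 1.74e-05) and 0.51 for both SMAD7 (adjusted p 0.00126) and SKIL (adjusted p 0.000297). TGFBR2 differed by 0.47 ± 0.07 (adjusted p 0.000485). The ligands and SMAD2 went the other way, with -0.76 ± 0.10 for TGFB2 (adjusted p 0.00026), -0.23 for TGFB1 (adjusted p 0.00601) and -0.43 for SMAD2 (adjusted p 0.000717). TGFBR1 differed by -0.21 (adjusted p 0.0187), which was not called without BXPC3 collagen replicate 1 (adjusted p 0.0591) or PANC1 collagen replicate 2 (adjusted p 0.0508). SMAD3 did not pass, at -0.07 (interval -0.20 to 0.05, adjusted p 0.311).

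In both lines 5 of the 10 genes were called, and all 5 had opposite signs, where 6.38% of all genes tested were called with opposite signs and 17.5% with the same sign. SMAD6, SMAD7, SKIL and TGFBI were lower in GelMA in BXPC3 and higher in PANC1 (3.04% of all genes), and TGFB2 was the reverse (3.34%). Without BXPC3 collagen replicate 1, 3 of them (TGFB2, SMAD6 and TGFBI) were called in both lines, and with each line fitted alone 3 were (TGFB2, SKIL and TGFBI), again with opposite signs. Without BXPC3 collagen replicate 2, SMAD6 lost its BXPC3 call, and TGFBR2 was called in both lines with the same sign, so that 4 of 5 had opposite signs. The 10 genes were chosen by name with earlier results of these data known. These counts therefore describe these genes and are not a test of the set.

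**Figure D3:**
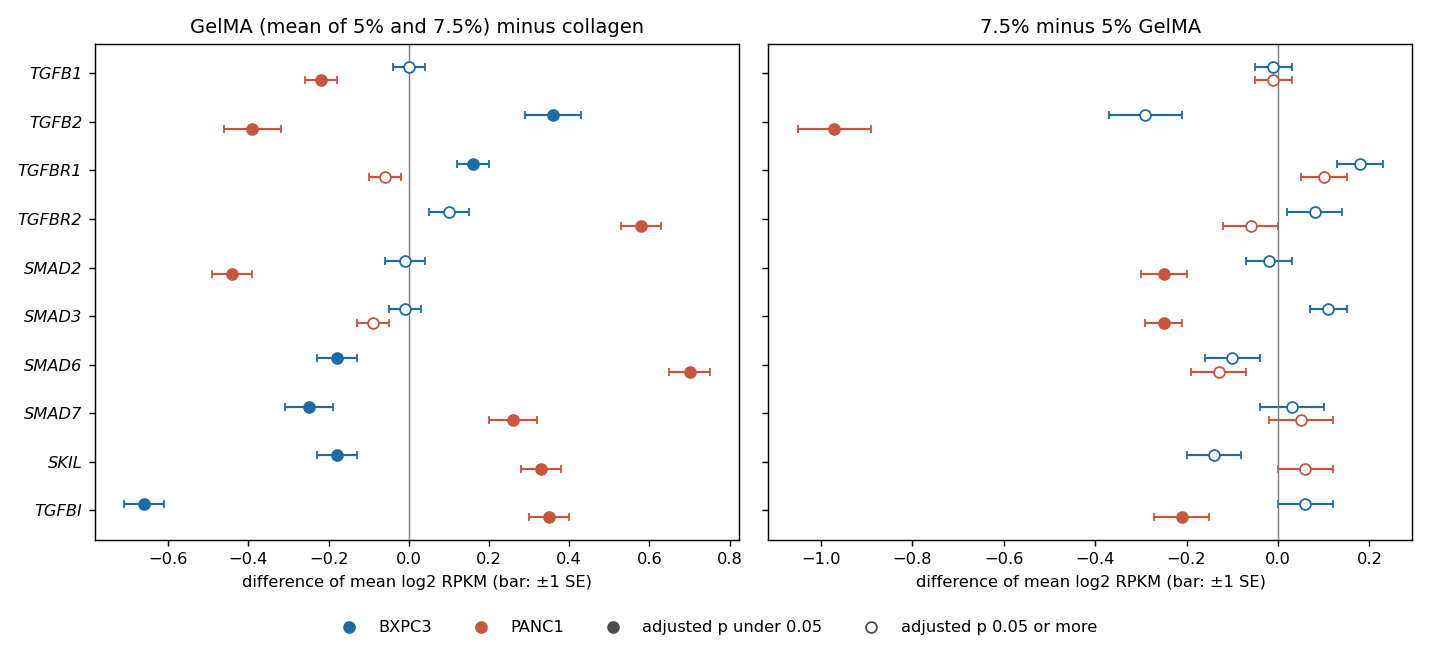
Difference of mean log2 RPKM for each gene (x axis, bars are ±1 SE) for GelMA against collagen (left) and 7.5% against 5% GelMA (right), in BXPC3 (blue) and PANC1 (red); filled points had a limma adjusted p under 0.05. On the left SMAD6, SMAD7, SKIL and TGFBI have blue points below 0 and red points above 0, and on the right TGFB2 in PANC1 lies at -0.97.

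The GelMA percentage bore on 4 of the 10 genes in PANC1, and all 4 were lower in 7.5% than in 5% GelMA (18.7% of all genes were called and 9.56% were lower). The calls of SMAD2 and TGFBI depended on single libraries. TGFB2 fell by 0.97 ± 0.08 log2 (limma adjusted p 6.57e-05), and SMAD3 fell by 0.25 ± 0.04 (adjusted p 0.00382). SMAD2 fell by 0.25 ± 0.05 (adjusted p 0.0111), not called without PANC1 5% GelMA replicate 2 (adjusted p 0.0812) or PANC1 7.5% GelMA replicate 1 (adjusted p 0.0808). TGFBI fell by 0.21 ± 0.06 (adjusted p 0.0347), a call lost in 6 of 20 alternatives. It was lost without the trend (limma adjusted p 0.0874) and without either BXPC3 7.5% GelMA library (-0.21). It was also lost without PANC1 5% GelMA replicate 1 (-0.25) or 2 (-0.17) or PANC1 7.5% GelMA replicate 1 (-0.14). The inhibitors SMAD6 (-0.13, adjusted p 0.168), SMAD7 (0.05, adjusted p 0.696) and SKIL (0.06, adjusted p 0.507) were not called.

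In BXPC3, limma called 0 of the 10 genes between the percentages, and 0.0823% of all genes (13 genes). At an unadjusted p under 0.05 there were 4: TGFB2 at -0.29 ± 0.08 (adjusted p 0.275), TGFBR1 at 0.18 (adjusted p 0.275), SMAD3 at 0.11 (adjusted p 0.457) and SKIL at -0.14 (adjusted p 0.475). Of the 79 other pathway genes described below, 15 passed that unadjusted threshold, and the share over all genes was not counted. The percentage effect itself differed between the lines for 2 genes, both with the lower value in PANC1 (8.97% of all genes differed, 4.96% toward lower values). TGFB2 differed by -0.68 ± 0.12 (adjusted p 0.0069) and SMAD3 by -0.37 ± 0.06 (adjusted p 0.00729). Taken singly against collagen, 5% GelMA changed 3 of the 10 genes in BXPC3 (29.9% of all genes) and 7 in PANC1 (46.2%), and 7.5% GelMA changed 5 in BXPC3 (29.8%) and 9 in PANC1 (53.8%). With the BXPC3 libraries alone the BXPC3 count in 7.5% GelMA was 3, where 3978 of the 15794 genes tested were called. Without BXPC3 7.5% GelMA replicate 1, SMAD6 and SMAD7 were each at -0.20 against collagen. Without replicate 2 of that group, SMAD7 was at -0.27 and SKIL at -0.17. TGFBR1 was the gene not called in PANC1 in 7.5% GelMA, at -0.01.

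Between the lines, over the 3 matrices weighted equally, 9 of the 10 genes differed, as did 91.8% of all genes tested: 6 higher in PANC1 (50% of all genes) and 3 lower (41.9%). In PANC1, TGFBI was higher by 2.02 ± 0.03 log2 (adjusted p 1.15e-12), TGFB2 by 1.76 ± 0.05 (adjusted p 3.62e-11), SMAD7 by 1.37 ± 0.04 (adjusted p 9.09e-11) and SMAD6 by 1.17 ± 0.04 (adjusted p 9.2e-11). TGFB1 was lower in PANC1 by 2.8 times in RPKM (-1.49 ± 0.02 log2, adjusted p 8.77e-13). TGFBR2 was also lower (-0.39 ± 0.03), and smaller differences were called for SMAD3 (-0.17), TGFBR1 (0.19) and SMAD2 (0.12). For TGFB1, TGFB2, SMAD6, SMAD7 and TGFBI no library of one line reached any library of the other. The share of all genes separated in this way was not counted, and with 91.8% called between the lines it may be large.

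SKIL did not differ over the matrices (0.03, interval -0.04 to 0.11), while in collagen alone PANC1 minus BXPC3 was -0.31 ± 0.06 (adjusted p 0.000421). In collagen all 10 genes differed between the lines, as did 86.2% of all genes. The SMAD3 difference in collagen, -0.12 (adjusted p 0.0292), lost its call in 5 of 19 alternatives. It was lost without the trend (limma adjusted p 0.0705) and with the replicate block by line (adjusted p 0.108). It was also lost without BXPC3 collagen replicate 1 (-0.12), BXPC3 collagen replicate 2 (-0.11) or PANC1 collagen replicate 1 (-0.08). SMAD2 was 0.40 ± 0.05 higher in PANC1 in collagen, and in 7.5% GelMA both PANC1 libraries were below both BXPC3 libraries. Bulk levels cannot separate the share of cells that express a gene from the RNA per cell.

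Other genes of the pathway were taken from 6 lists of 86 genes, of which 79 were tested. The lists too were chosen with earlier results of these data known. In BXPC3 the gel raised 23 and lowered 16 of the 79 (19.4% and 16.7% of all genes; median 0.00 log2, beside 0.01 over all genes), and in PANC1 it raised 21 and lowered 23 (27.7% and 27.4% of all genes; median -0.02, beside -0.01). Of the 79, 27 were called in both lines, 15 with the same sign (17.5% of all genes), 4 lower in BXPC3 and higher in PANC1 (3.04%), and 8 the reverse (3.34%). Over all genes 36.1% were called in BXPC3 and 55.1% in PANC1, and the PANC1 counts of the 79 lay near those shares.

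**Figure D4:**
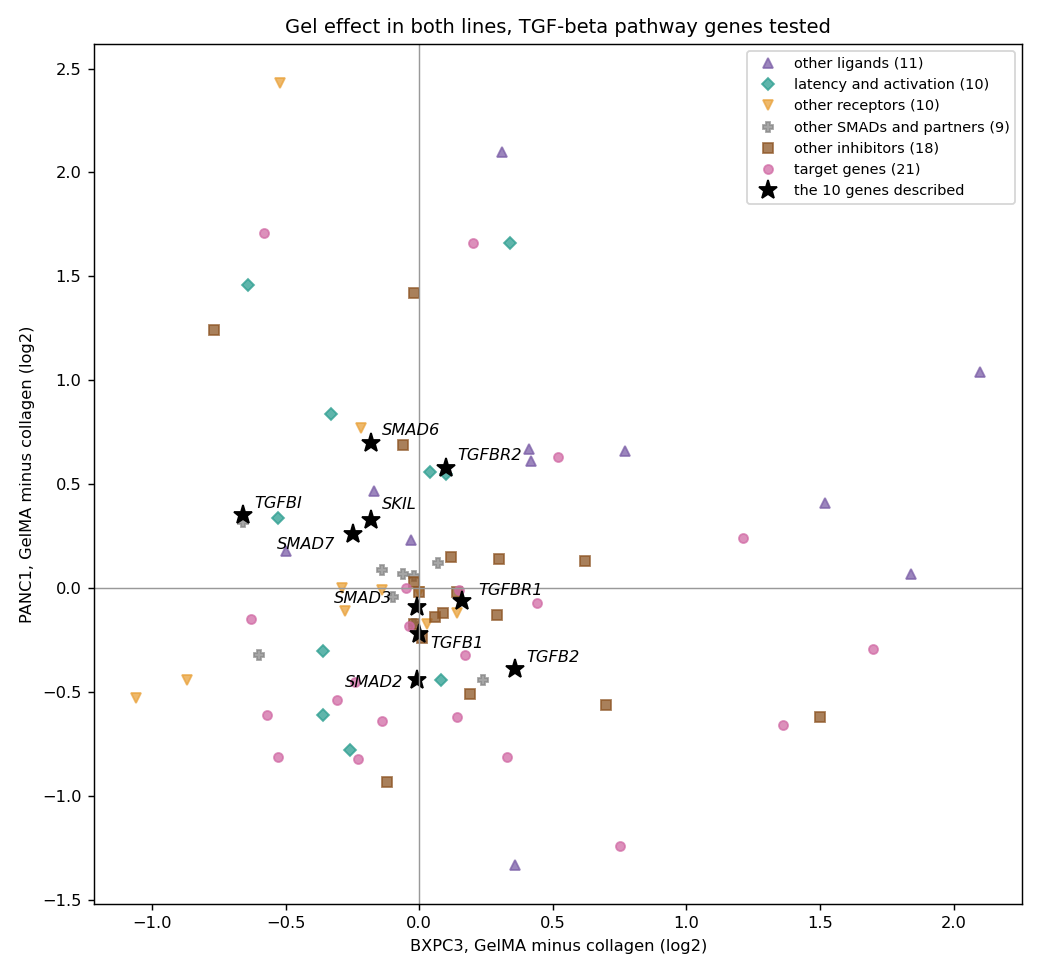
Gel effect in BXPC3 (x axis) and in PANC1 (y axis), each as GelMA minus collagen in log2, for the 79 other pathway genes by list and for the 10 genes described (stars). SMAD6, SMAD7, SKIL and TGFBI lie at the upper left and TGFB2 in the lower right.

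Among 11 other ligands, 7 rose and 0 fell in BXPC3 (19.4% and 16.7% of all genes), and 6 rose and 1 fell in PANC1 (27.7% and 27.4%). TGFB3, the remaining TGF-beta ligand, rose in both lines (0.41 ± 0.14 in BXPC3, limma adjusted p 0.0458, and 0.67 ± 0.14 in PANC1, adjusted p 0.00266), unlike TGFB1 and TGFB2. The stress-associated GDF15 rose in both as well (0.77 and 0.66). BMP7 rose in BXPC3 by 1.84 ± 0.09, from a mean of 1.14 to 2.98 log2 RPKM, beside 0.07 (adjusted p 0.566) in PANC1. BMP4 rose in PANC1 4.3-fold, from 1.73 to 3.83. INHBA, the activin A subunit, fell there by 1.33 ± 0.12 while it rose in BXPC3 by 0.36 (adjusted p 0.0386). The BXPC3 calls of TGFB3 and INHBA, near the threshold of 0.05, were not run through the alternatives.

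The 10 tested genes of the next list hold TGF-beta latent or release it. Of these 1 rose and 5 fell in BXPC3 (19.4% and 16.7% of all genes), and 5 rose and 3 fell in PANC1 (27.7% and 27.4%). The latent TGF-beta binding proteins LTBP1 and LTBP2 had the same pattern as TGFBI: LTBP2 was -0.64 ± 0.05 in BXPC3 (adjusted p 1.55e-05) and 1.46 ± 0.05 in PANC1 (adjusted p 1.4e-08), and LTBP1 was -0.33 and 0.84. LTBP3 and LTBP4 fell in both lines, by 0.26 and 0.36 in BXPC3 and by 0.78 and 0.61 in PANC1. THBS1, which encodes the activator thrombospondin 1, rose in both, by 0.34 in BXPC3 and 1.66 in PANC1. FBN1, whose protein fibrillin anchors latent complexes, fell in BXPC3 by 0.53 (adjusted p 0.0252), a call lost without BXPC3 collagen replicate 2 (adjusted p 0.266), BXPC3 5% GelMA replicate 1 (0.0653) or BXPC3 7.5% GelMA replicate 2 (0.0676).

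Of 10 other receptors, 0 rose and 5 fell in BXPC3 (19.4% and 16.7% of all genes), and 2 rose and 2 fell in PANC1 (27.7% and 27.4%), where 55.1% of all genes were called. The co-receptor TGFBR3, which presents TGFB2 to the signalling receptors, fell in BXPC3 by 0.22 (adjusted p 0.0133) and rose in PANC1 by 0.77 ± 0.06 (adjusted p 2.43e-06). The co-receptor ENG fell in BXPC3 by 1.06 from a level near 1 RPKM, and in PANC1 by 0.53. The activin receptor ACVR2B fell in BXPC3 by 0.87 and in PANC1 by 0.44, the latter not called without PANC1 collagen replicate 2 (adjusted p 0.111). Among the 9 other SMADs and partners, 1 gene fell in each line and 0 rose, where 36.1% of all genes were called in BXPC3 and 55.1% in PANC1. These were FOXH1 in BXPC3 (-0.66, adjusted p 0.0244), which lost its call without BXPC3 collagen replicate 2 (adjusted p 0.237), BXPC3 5% GelMA replicate 1 (0.0578) or BXPC3 7.5% GelMA replicate 2 (0.0661) and with the BXPC3 libraries alone (0.0701), and the SMAD anchor ZFYVE9 in PANC1 (-0.17, adjusted p 0.0295), which lost it without PANC1 collagen replicate 2 (0.247), PANC1 5% GelMA replicate 2 (0.0865) or PANC1 7.5% GelMA replicate 1 (0.0768).

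Of the 18 other inhibitors, 5 rose and 0 fell in BXPC3 (19.4% and 16.7% of all genes), and 5 rose and 7 fell in PANC1 (27.7% and 27.4%). Called in both lines were 5: 0 lower in BXPC3 and higher in PANC1 (3.04% of all genes), 3 the reverse (3.34%) and 2 with the same sign (17.5%). The pseudoreceptor BAMBI rose in PANC1 by 1.42 ± 0.12 and was at -0.02 in BXPC3. The BMP antagonist NOG rose in BXPC3 by 1.50 ± 0.09, from -0.16 to 1.34 log2 RPKM, and fell in PANC1 by 0.62 from 6.98. FSTL3, which binds activin, moved likewise, by 0.70 in BXPC3 and -0.56 in PANC1. SKI, the closest relative of SKIL, was at -0.02 (adjusted p 0.814) in BXPC3 and 0.03 (adjusted p 0.64) in PANC1. TGIF2 fell in PANC1 by 0.93, and LDLRAD4 rose there by 1.24 from below 1 RPKM, a call lost without PANC1 collagen replicate 1 (adjusted p 0.0668).

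Of 21 target genes, 10 rose and 5 fell in BXPC3 (19.4% and 16.7% of all genes), and 3 rose and 9 fell in PANC1 (27.7% and 27.4%). TGFBI, which fell in BXPC3 and rose in PANC1, thus went against most of the called targets in both lines. The actin-binding TAGLN rose in BXPC3 by 1.36 ± 0.14 and fell in PANC1 by 0.66, and CCN2 rose in BXPC3 by 1.21 ± 0.15 from a level near 1 RPKM. ID1 fell in BXPC3 by 0.63 ± 0.08. In PANC1 COL1A1 rose by 1.66 ± 0.06, and SNAI1, a repressor of epithelial genes, fell by 1.24 ± 0.25. The protease inhibitor TIMP3 fell in BXPC3 by 0.58 ± 0.09 and rose in PANC1 by 1.71 ± 0.09, but its level in PANC1 in collagen was only -0.42 log2 RPKM beside 8.98 in BXPC3. COL4A1 fell in PANC1 by 0.82 (adjusted p 0.025), not called without either PANC1 collagen library (0.0539 and 0.154), PANC1 5% GelMA replicate 1 (0.0579) or PANC1 7.5% GelMA replicate 1 (0.064).

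Across the 12 libraries, with each line centred on its own mean, the genes most like TGFB2 were NFIC (Pearson r 0.963), PRICKLE1, IRF2BP2, UNK and FOXA1 (0.941), out of 11576 genes compared. The genes most like SKIL were KAZALD1 (0.979), MYO6, ARHGAP29, CLCN5 and MAN2B2 (0.936). For SMAD7 they were ENSG00000272668 (0.966), RBBP4, LRRC8C, SLC35A5 and GET4 (0.945). The libraries share groups and lines, so these values only rank likeness, and each set was picked as the highest of many.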

How the data were processed

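Gene expression was measured by RNA sequencing after poly-A capture in 12 libraries of BXPC3 and PANC1, per the labels' protocols. HISAT2 2.1.0, HTSeq and GRCh38 were used, per the submitters' processing notes, with settings, strand handling and kit not given in the sources used here. Values deposited by the authors are log2 RPKM for 16299 genes (-8.66 to 13.74), in columns named by library per the file headers, and 0 such columns stayed without a sample. The offset before the log is likewise unknown. Sorted values were equal in all libraries within 0.05 log2 for 13758 genes, so the deposited values were taken to be quantile normalized, a step read from the values. Such a step removes any shift that most genes have in common. Depth is unknown, and precision rests on the spread between libraries.

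The 15794 genes that reached 1 RPKM in 2 or more libraries were tested with limma 3.58.1 in R 4.3.3 (1 model of 6 group means over 12 libraries, trended eBayes, 6 residual and 3.89 prior degrees of freedom), with Benjamini-Hochberg adjustment over all genes tested and calls at an adjusted p under 0.05. Errors are standard errors of that fit. The script was tested on simulated data. Groups were taken from the labels. Symbols matched 16250 gene IDs, positions are from GENCODE 29 and promoters from RefSeq (GRCh38.p14), read with Python 3.11.15. The genes described, the lists and the comparisons were chosen with earlier results of these data known. From each wider list the rule named, per line, the 2 highest and 2 lowest called fold changes among genes reaching a group mean of 1 RPKM in that line. LTBP1 and SKI were named after their values were seen, as were values in the other line. Such values were not run through the alternatives. Likeness was ranked among genes with a mean of at least 2 log2 RPKM. Alternatives were no filter, a filter over 6 libraries, log2(RPKM + 1), no trend, equal medians, replicate blocks, each line alone and leaving out each library. Equal medians could change little, because the library medians already lay -0.0014 to 0.0014 log2 from their mean.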

Additional observations from a re-analysis of the deposited data

Results flagged for a closer look

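The 11 results below are listed because the effect of the same contrast differed between BXPC3 and PANC1 by a test of the difference itself (limma, PANC1 effect minus BXPC3 effect, adjusted p under 0.05). For GelMA against collagen these differences, in log2, were 1.01 for TGFBI, 0.88 for SMAD6, 0.51 for SMAD7, 0.51 for SKIL, 0.47 for TGFBR2, -0.21 for TGFBR1, -0.23 for TGFB1, -0.43 for SMAD2 and -0.76 for TGFB2. For 7.5% against 5% GelMA they were -0.68 for TGFB2 and -0.37 for SMAD3. The 9 gel differences are to be read beside the 39.1% of all genes tested that also differed, and the 2 percentage differences beside 8.97%. Groups of 2 libraries were too small for a search for single outlying libraries.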

How the results depend on the processing

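Over 12 comparisons of the 10 genes there were 120 results, under 20 alternative settings within a line and 19 between lines: 99 kept their call in every setting, 21 lost or gained it in at least 1, and 0 reversed. Among these settings, equal medians could change little, as said above. The genes called in BXPC3 between GelMA and collagen went from 6 to 3, and in BXPC3 between 7.5% GelMA and collagen from 5 to 3, when the BXPC3 libraries were fitted alone, a fit with fewer samples. Over all genes tested the same fit took these counts from 5703 to 5096 and from 4701 to 3978. Of all genes, 13 were called between the percentages in BXPC3, and 0 on the log2(RPKM + 1) scale or with the BXPC3 libraries alone; the difference of the percentage effects went from 1417 genes to 941 without the trend. The cause of these shifts was not tested.

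With the replicate number as a block over all libraries, 1 gene was called between the percentages in BXPC3, and with a replicate block by line 0 were. Same-numbered libraries did not deviate together: the correlations of their deviations were -0.048 to 0.077 over 15 pairs of groups, 0 of them over 0.1, so the numbers were not taken to pair the libraries. With the block by line, SMAD2 lost its call between the lines over matrices (0.06, adjusted p 0.191), SMAD3 between the lines in collagen (-0.11, adjusted p 0.108) and SMAD7 in BXPC3 in 7.5% GelMA (-0.23, adjusted p 0.0639).

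Leaving out each library in turn gave these ranges of genes called: 3623 to 5845 for the gel in BXPC3 (5703 with all libraries; the lowest without BXPC3 collagen replicate 2), 3047 to 4839 for 5% GelMA in BXPC3 (lowest without BXPC3 collagen replicate 2), 2610 to 4811 for 7.5% GelMA in BXPC3 (lowest without BXPC3 7.5% GelMA replicate 2), 1 to 33 between the percentages in BXPC3, 1449 to 3162 between the percentages in PANC1 (lowest without PANC1 5% GelMA replicate 2) and 659 to 1651 for the difference of the percentage effects (lowest without BXPC3 7.5% GelMA replicate 1). Of the 10 genes, 3 to 6 were called for the gel in BXPC3, 3 to 5 for 7.5% GelMA in BXPC3 and 2 to 4 between the percentages in PANC1. The lone library of a reduced group was assumed to vary like the other groups. Depth is unknown, so no limit of detection can be given.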
